A study of Mus musculus with 6 samples.

Results

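The genes described here encode the proteins of the cytosolic ribosome, with Rpl symbols for the large subunit and Rps symbols for the small subunit. Members were taken by symbol alone (Rpl or Rps followed by a number and at most 1 letter, plus Rplp0, Rplp1, Rplp2 and Rpsa). That leaves out genes with pseudogene symbols, kinases and the core proteins that go by other symbols. Rps4l matched the rule and was kept, although GENCODE lists it as a transcribed processed pseudogene. The rule found 81 of 24421 rows in the deposited table. Of these, 49 were of the large subunit (46 core genes and the paralogues Rpl3l, Rpl10l and Rpl39l) and 32 of the small subunit (30 core genes and the paralogues Rps27l and Rps4l). A mean of at least 1 FPKM (a read level per length of the gene and per depth of the library) was reached by 77 members, 45 large and 32 small, and these entered the tests over 10748 genes.

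RNA was sequenced from 3 murine pancreatic ductal adenocarcinoma lines, named 2838c3, 6419c5 and 6499c4. Each line was kept for 16 hours with the solvent DMSO (vehicle) or with 250 nM of the compound G-1, which activates the membrane oestrogen receptor GPER, and the comparison asks which genes respond to it. All cells were at passages 15 to 20 in medium with serum, and 1 library was made per line and treatment, 6 in all. Neither vehicle nor G-1 has a repeat library in any line. P-values for G-1 were set against how much its difference varied among the 3 lines. P-values between lines used that same variation as their error, with 2 differently treated libraries per line. They do not cover the spread between repeat cultures of a line. The labels give no genotype; as background, lines of these names were cloned from pancreatic tumours of mice, so each line stands for 1 clone.

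As background, most ribosomal proteins are needed in equal number in the finished particle, and the messenger RNAs of these genes are short, abundant and stable. They begin with a run of pyrimidines, the 5' terminal oligopyrimidine tract, through which LARP1 and the kinase mTOR hold back or release their translation. Supply is therefore tuned in large part at translation and by the breakdown of unassembled protein, neither of which RNA sequencing measures.

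The shared start of these messages is shown first, because it is the sequence feature that the members have in common and that the choice by symbol did not use. The following 30 bases run from 10 before to 20 after the start annotated by RefSeq in GRCm38.p6, 5′ to 3′ on the strand of the gene, with the longest run of C and T in capitals.
Rplp2, chr7:141447641-141447670, plus strand: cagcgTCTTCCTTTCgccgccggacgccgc
Rpl27a, chr7:109519185-109519214, plus strand: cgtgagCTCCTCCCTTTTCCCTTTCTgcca
Rpl35, chr2:39005112-39005141, minus strand: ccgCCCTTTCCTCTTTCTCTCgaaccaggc
Rps6, chr4:86857348-86857377, minus strand: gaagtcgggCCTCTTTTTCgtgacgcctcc
Rps10, chr17:27635225-27635254, minus strand: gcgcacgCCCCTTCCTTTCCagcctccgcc
Rps18, chr17:33955646-33955675, minus strand: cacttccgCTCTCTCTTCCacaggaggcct
In these 6 the run spans 10, 20, 18, 10, 13 and 11 bases, and it covers the annotated first base in each. Over the 60 members with an entry in the table of RefSeq starts, 48 (80.0%) held a run of at least 8 C or T between 30 bases before and 50 after a start, on the strand of the gene. The share was 83.8% of 37 large and 73.9% of 23 small subunit genes. It was 30.4% of 69 mitochondrial ribosomal protein genes, 29.8% of the 8237 tested genes with an entry and 32.3% of all 27025 genes in that table. The hexamer CGGAAG, the core that ETS family factors recognise, was searched on both strands of the 300 bases from 250 before to 50 after the start, where it can overlap the run. It was found for 41 of the 60 members (68.3%), for 56.5% of the mitochondrial set, for 37.8% of those tested genes and for 18.8% of all genes. Among tested members the run went with neither level nor G-1 difference in a visible way: the median FPKM was 442 in the 45 members with a run and 482 in the 11 without, and the median log2 difference under G-1 was 0.08 and 0.09.

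Levels of the members spread widely although most of the proteins are used in equal number. Of the 81, 16 had a mean of at least 1000 FPKM, 73 of at least 50, 4 lay between 1 and 50 and 4 below 1. Rplp1, the acidic stalk protein that recruits elongation factors, was the highest, with 2376 FPKM under vehicle and 3138 under G-1 in line 2838c3. It had 2068 and 2419 FPKM in 6419c5 and 3029 and 3738 in 6499c4, and values below are given in the same order of lines and treatments. Next came Rps12 of the small subunit head, at 1340 and 1504, 1828 and 1811, and 2226 and 2233 FPKM, so that 2838c3 was lowest and 6499c4 highest with no overlap between lines. Rplp0, the base of the stalk, followed at 1608 and 1914, 1389 and 1361, and 1851 and 1789 FPKM, where 6419c5 was lowest. Rpl8, which lies near the catalytic centre, Rpl12, which binds at the foot of the stalk, and Rps2, at the entry of the mRNA channel, completed the 6 highest, with means of 1600, 1480 and 1310 FPKM.

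**Figure D1:**
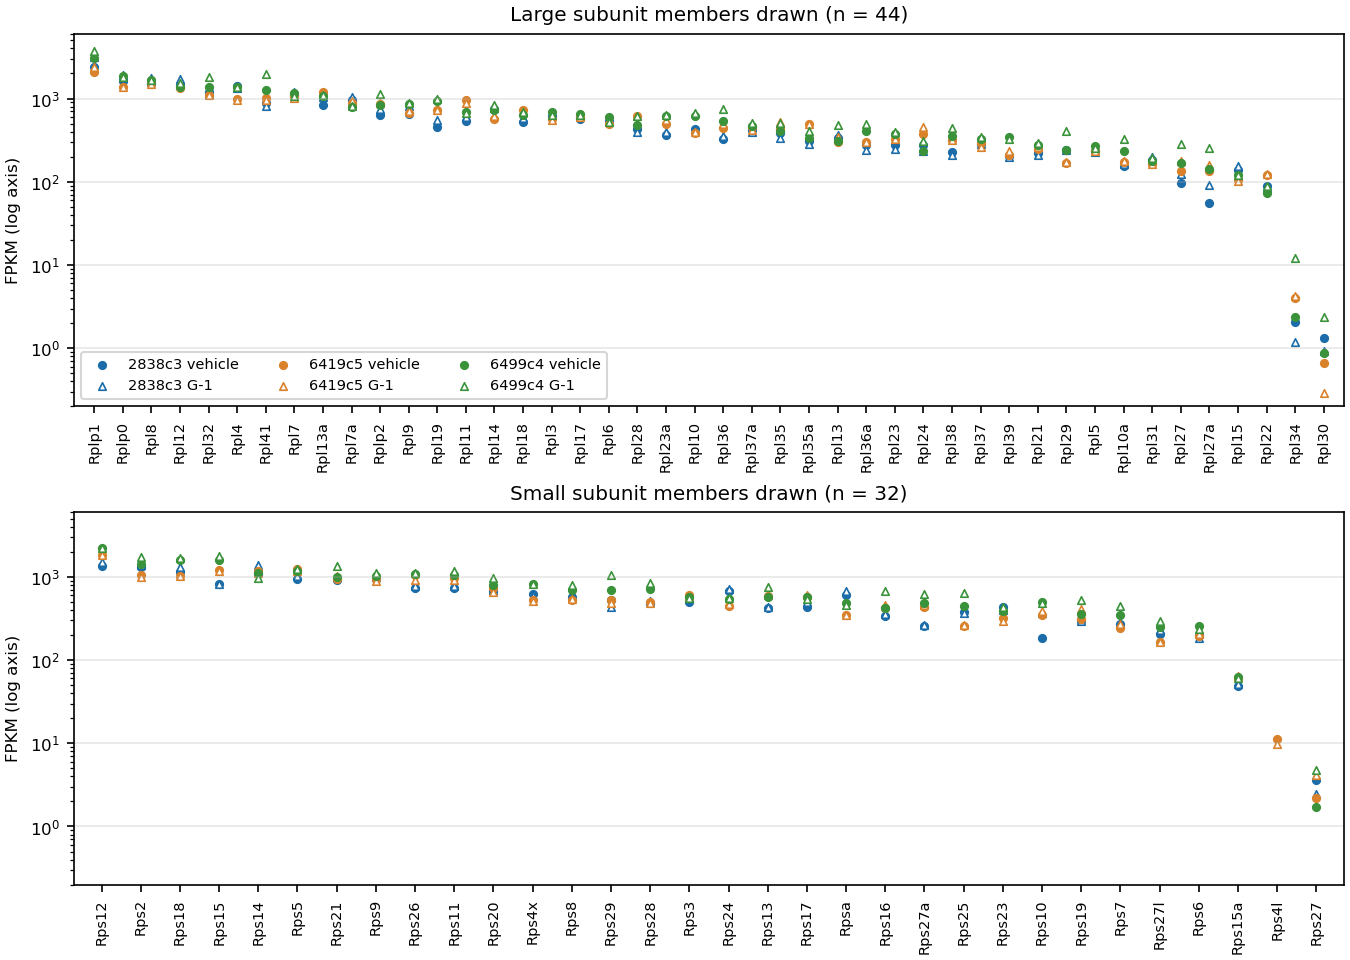
FPKM (log axis) of the tested members in each of the 6 libraries, large subunit above (1 member not drawn) and small subunit below, ordered by mean. Filled circles are vehicle and open triangles G-1, coloured by line; Rplp1 leads with a mean of 2790 FPKM, Rpl34, Rpl30, Rps27 and Rps4l lie far below the rest, and values of 0 (Rps4l in 2838c3 and 6499c4) cannot be drawn.

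The order of the members was nearly the same in every line. Over the 73 members with a mean of at least 50 FPKM, Spearman's rho between the levels of 2 lines was 0.94 for 2838c3 and 6419c5, 0.94 for 2838c3 and 6499c4 and 0.95 for 6419c5 and 6499c4, against 0.76, 0.70 and 0.78 over the 1667 other genes with such a mean. These are correlations across genes, which share libraries and are not independent replicates, and the levels are per length in both sets. The reads behind each of these 73 members ran from 418 (Rps27l) to 23046 (Rplp0) per library.

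Some of that spread came with the length by which the authors divided. The gene length recovered from the FPKM steps was 5134 bases for Rps15a against a coding length of 393 in GENCODE, 2497 against 387 for Rpl22, 1856 against 483 for Rpl21, and 449 against 78 for Rpl41, the smallest ribosomal protein. When the same values were set per kilobase of coding length, Rps15a moved from the last of the 73 members (58.2 FPKM) to the 40th, with 760, and Rpl22, an RNA-binding protein of the large subunit, from the 72nd (96.9 FPKM) to the 51st, with 625. Rpl41 went from the 11th (1150 FPKM) to the first, with 6620. From the lowest to the highest member the FPKM differed 47.9-fold (58.2 for Rps15a, 2790 for Rplp1), and the level per coding length 25.4-fold (261 for Rpl10a, 6620 for Rpl41). The SD of the log2 levels was 1.06 in FPKM and 0.84 per coding length. Differences between libraries do not depend on this choice, because a gene keeps its length in each library.

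**Figure D2:**
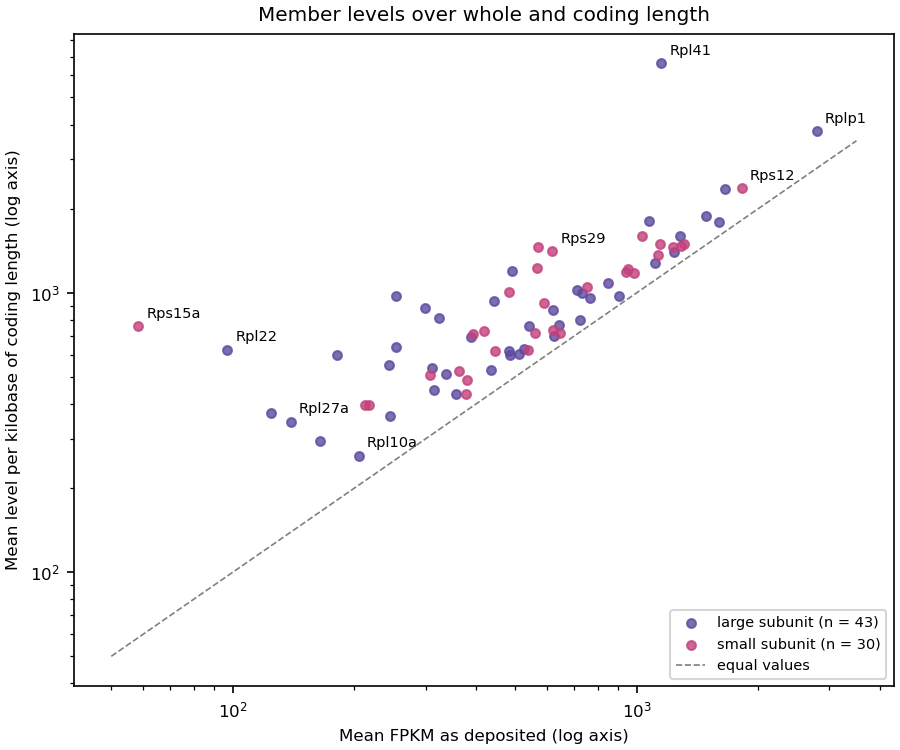
Mean FPKM as deposited (x, log axis) against the mean level per kilobase of coding length (y, log axis) for the 73 members with a mean of at least 50 FPKM, by subunit; the dashed line marks equal values. Rps15a (58.2 FPKM, 760 per coding kilobase), Rpl22 and Rpl41 lie farthest above the line.

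A group of 4 genes for core proteins was nearly without reads. Rpl26, at the rim of the exit tunnel, had 0 reads in all 6 libraries, and a count of 0 allows a level of up to 3 reads (0.336 to 0.547 RPM, a read level by depth alone). Rpl30, a small protein at the subunit interface, had 7 and 5 reads in 2838c3, 3 and 1 in 6419c5, and, in 6499c4, 5 and 12, a mean of 1.08 FPKM. Rps27, a zinc-binding protein of the small subunit, had 18 and 12, 9 and 13, and 9 and 22 reads (mean 3.15 FPKM). Rpl34, of the large subunit, had 12 and 7, 20 and 16, and 15 and 68 reads (mean 4.37 FPKM), so that the G-1 library of 6499c4 stood above the other 5. The next core member in order of FPKM, Rps15a, had 1783 to 2966 reads per library.

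What these 4 had in common was the row beside them. Neighbouring rows of the table follow the order of the genome in 98.7% of cases, and 4 members sat next to a row for a gene that GENCODE puts on another chromosome: Rpl26 beside Gm15772, Rpl30 beside Gm12191, Rps27 beside Rps27rt and Rpl34 beside Rpl34-ps1. They were these same 4, and each neighbouring row, itself at 0 reads in all libraries, was the gene that shares more 50-base words with the member than any other gene does (60.59%, 47.79%, 98.65% and 37.91% of the member's words). In GRCm38, Rpl26 lies on chromosome 11 (68901583 to 68906989) and Gm15772 on chromosome 5 (3236431 to 3236868), Rps27 on chromosome 3 (90212522 to 90213651) and Rps27rt on chromosome 9 (114982366 to 114982739). Over the coding length, Rps27 and Rps27rt were identical at all 255 bases, Rpl26 and Gm15772 differed at 2 of 438, Rpl30 and Gm12191 at 1 of 348 and Rpl34 and Rpl34-ps1 at 2 of 354. A stretch of 60 coding bases is given for 3 of these pairs, with a base that differs in capitals, and for Rps27 beside its paralogue Rps27l, which had 164 to 292 FPKM.
Rps27, from coding base 1: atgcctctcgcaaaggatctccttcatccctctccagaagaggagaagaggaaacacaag
Rps27rt, from coding base 1: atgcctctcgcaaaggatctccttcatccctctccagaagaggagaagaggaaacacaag
Rpl26, from coding base 118: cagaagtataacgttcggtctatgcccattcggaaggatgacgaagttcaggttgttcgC
Gm15772, same stretch: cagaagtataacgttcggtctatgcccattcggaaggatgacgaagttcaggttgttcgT
Rpl34, from coding base 73: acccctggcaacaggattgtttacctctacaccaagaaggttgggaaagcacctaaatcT
Rpl34-ps1, same stretch: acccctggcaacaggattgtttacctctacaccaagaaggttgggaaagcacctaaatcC
Rps27, from coding base 4: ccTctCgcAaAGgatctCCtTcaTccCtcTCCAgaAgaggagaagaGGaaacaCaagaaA
Rps27l, same stretch: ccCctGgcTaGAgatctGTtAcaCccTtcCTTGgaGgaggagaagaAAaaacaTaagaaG
The Rps27 and Rps27l stretches differ at 19 of these 60 bases and at 61 of the 255 in all, where the other pairs shown differ at 1 base or none. Many members with higher levels also shared words with another gene. At least 1 shared 50-base word was found for 78 of 81 members, genes that overlap the member's own locus included. Of the 73 members with a mean of at least 50 FPKM, 39 shared as large a part of their words with a single other gene as Rpl34 did, and for 35 of these that gene lay elsewhere in the genome. The gene sharing most words was itself a row of the table for 12 members, these 4 and 8 others. For 3 of the 8 (Rpl35, Rps25 and Rpl31) it overlaps the member on the opposite strand, and for 5 it lies elsewhere, with means from 245 (Rpl29) to 850 FPKM (Rplp2). Identity over the coding length was not measured for these others. The labels and files do not say how reads that fit several genes were counted, and the part of that counting in the low values was not tested. For all members that share sequence with copies, the level is therefore uncertain by an amount these files do not show.

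Paralogues replace a core protein in particular tissues, and most of those that matched the rule were not detectable at this depth. Rpl3l, known from heart and skeletal muscle, and Rpl10l, known from testis, had 0 reads in each library, and Rpl39l had 1 read in all, in the G-1 library of 6499c4. Rps27l had 207 and 228 FPKM in 2838c3, 164 and 165 in 6419c5, and, in 6499c4, 247 and 292, so that lines did not overlap. Rps4l was present in a single line: it had 75 and 50 reads (11.2 and 9.76 FPKM) in 6419c5 and 0 reads in the 4 libraries of the other lines. GENCODE lists Rps4l as a transcribed processed pseudogene on chromosome 6 (148354656 to 148355598, plus strand). In limma the log2 difference of 6419c5 from 2838c3 was 3.52 (SE 0.18, Benjamini-Hochberg adjusted p = 1.16e-05), on the log2(FPKM + 1) scale against a line at 0, so that this size depends on the added 1 FPKM. Its core counterpart Rps4x, on the X chromosome, was lower in 6419c5 (529 and 512 FPKM) than in 2838c3 (613 and 586) and 6499c4 (813 and 823). The difference of Rps4x from 2838c3 was small, -0.20 (SE 0.07, limma adjusted p = 0.0406). That call was lost with no level filter, no variance trend or scaling to read totals (limma adjusted p of 0.0676 to 0.11). It was also lost when any 1 library of these lines was left out, with differences of -0.23 to -0.18. Corrected for gene length and GC content, the difference was -0.40 (limma adjusted p = 0.0014). Of the paralogues outside the rule, Rpl22l1 (mean 166 FPKM) stood at 124 and 125 FPKM in 2838c3, 78.4 and 76.2 in 6419c5, and above these in both libraries of 6499c4. Rpl22 itself had 87.8 and 87.4, 121 and 125, and 72.6 and 87.8 FPKM, so that 6419c5 was highest and the other lines overlapped. Rpl36al (mean 98.2 FPKM) and Rpl7l1 (90.6) were present in all 6 libraries.

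The balance of the subunits was similar in all libraries. The large subunit took 58.1 and 58.6% of the summed member FPKM in 2838c3, 57.3 and 58.3% in 6419c5, and, in 6499c4, 56.0 and 56.1% (mean 57.4%), and 59.7 to 62.3% of the member reads. Both libraries of 6499c4 lay below the 4 others. Of the 77 tested members 45 were of the large subunit, so its larger share goes with its larger number of genes. A single small subunit gene was read at a higher level than a single large subunit gene: the median over tested members was 510 against 413 FPKM in 2838c3 vehicle, 537 against 400 in 2838c3 G-1, 525 against 483 in 6419c5 vehicle, 498 against 495 in 6419c5 G-1, 573 against 484 in 6499c4 vehicle and 709 against 521 in 6499c4 G-1. The small subunit median was thus above the large one in each of the 6 libraries, by least in 6419c5 under G-1. Small subunit genes were also shorter, with a median length of 608 bases against 775.

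Members together took 3.28% of the reads in genes in the vehicle library of 2838c3 and 3.66% in its G-1 library. The shares were 3.44 and 3.49% in 6419c5 and 4.28 and 4.68% in 6499c4. Their summed FPKM went from 43183 to 46994, from 45684 to 46258 and from 52847 to 59508 between vehicle and G-1. The sum was thus higher under G-1 in 3 of 3 lines, least so in 6419c5, and both libraries of 6499c4 were above all others. The G-1 library of 6499c4 held the highest value of the 6 libraries for 45 of the 77 tested members (23 large, 22 small), where 21.6% of all tested genes had their highest value there. The vehicle library of 2838c3 held the lowest value for 28 members, and for 19.9% of all genes. Whole cultures were sequenced, so more RNA of a gene per cell and more cells that make it cannot be told apart.

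G-1 changed no member by the test over all genes: 0 of 77 were called in limma at a Benjamini-Hochberg adjusted p below 0.05, where 0.0279% of all 10748 genes were called (3 genes). An unadjusted p below 0.05 was found for 12 members, 8 large and 4 small, against 10.1% of all genes. The median log2 difference over members was 0.08 (quartiles 0.03 and 0.15), and -0.01 over all genes. It was 0.08 in 2838c3, 0.01 in 6419c5 and 0.15 in 6499c4, with 49, 45 and 60 of 77 members higher under G-1 against 46.4, 48.8 and 49.7% of all genes. In all 3 lines 23 members were higher, against 15.4% of all genes, and 0 were lower, against 17.5%. The large and small subunit did not separate: their medians were 0.08 and 0.07 over the lines, 0.09 and 0.08 in 2838c3, 0.02 and 0.00 in 6419c5, and, in 6499c4, 0.12 and 0.16. Limma-voom on the reads recovered from the FPKM values called 9 of 77 members, all higher, against 1.57% of all genes.

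**Figure D3:**
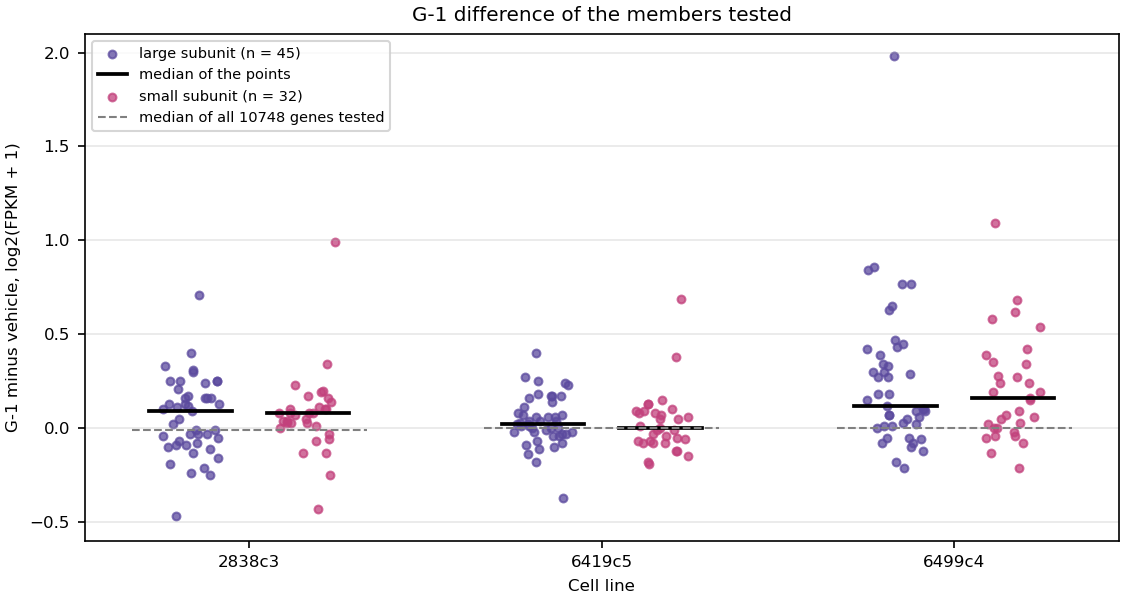
Difference between the G-1 and the vehicle library of each line, in log2(FPKM + 1), for the 45 large and 32 small subunit members tested. Each point is 1 gene, black bars are subunit medians (0.09 and 0.08, 0.02 and 0.00, 0.12 and 0.16) and dashed lines the median of all genes tested; the topmost point in 6499c4 is Rpl34, which rests on 15 and 68 reads.

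By the smallest difference in any line, the 6 members highest under G-1 in all lines were of the large subunit. Rpl27 (chromosome 11, 101442298 to 101445529) had 97.6 FPKM with vehicle and 123 with G-1 in 2838c3. In 6419c5 it had 136 and 180 FPKM, and in 6499c4 166 and 284. Each G-1 library was above the vehicle library of its own line, while the groups overlapped across lines. Its read ratios were 1.26 (exact 95% interval 1.13 to 1.40), 1.32 (1.19 to 1.47) and 1.71 (1.58 to 1.85), and the mean log2 difference was 0.50 (SE 0.09, limma adjusted p = 0.219). Rpl27a, another large subunit gene (chromosome 7, 109519147 to 109522367), had 55.1 and 90.4 FPKM in 2838c3, 134 and 160 in 6419c5, and, in 6499c4, 141 and 253. The vehicle library of 2838c3 was far below the other 5 here. Its mean difference was 0.60 (SE 0.11, limma adjusted p = 0.219), and 0.55 after correction for gene length and GC content, against 0.39 for Rpl27.

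Rplp1 came next, with log2 differences of 0.40, 0.23 and 0.30 in the 3 lines and a mean of 0.31 (SE 0.07, limma adjusted p = 0.294), and its groups overlapped only through the high vehicle library of 6499c4. Rpl12 was at 1438 and 1713, 1344 and 1480, and 1358 and 1535 FPKM, a pattern in which the lowest G-1 library lay above the highest vehicle library. Its mean difference of 0.19 (SE 0.06) had a limma adjusted p of 0.398. Rpl36 (0.26, SE 0.08) and Rpl13 (0.31, SE 0.10) were higher in all 3 lines, but most of each mean came from 6499c4, with 0.47 and 0.65 there against 0.13 and 0.11 in 2838c3. With the correction for length and GC content, the means of Rplp1, Rpl12, Rpl36 and Rpl13 were 0.17, 0.09, 0.05 and 0.22. The 9 members called by limma-voom were these 6 with Rplp2, Rps19 and Rps16.

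Small subunit genes with larger differences were uneven across lines. Rps10 (named here after its values were seen) had 183 FPKM in the vehicle library of 2838c3 and 352 to 493 in the other 5 libraries, a ratio of 1.99 (95% interval 1.83 to 2.16) in that line. Its log2 differences were 0.99 there and 0.13 and -0.02 in 6419c5 and 6499c4. The mean of 0.37 (SE 0.17) had a limma adjusted p of 0.521. Of the annotated exon bases of Rps10, 28.7% overlap other genes, most of them RPS10-NUDT3 on the same strand. Rps19, the gene most often mutated in Diamond-Blackfan anaemia, had 291 and 298, 312 and 405, and 353 and 528 FPKM, with log2 differences of 0.04, 0.38 and 0.58 (mean 0.33, SE 0.10, limma adjusted p = 0.371). Rps16 (after its values were seen) was near level in 2838c3 (341 and 358 FPKM) and 6419c5 (427 and 456) and stood at 417 and 670 in 6499c4.

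Outside the stalk, the members named for roles beyond the ribosome, or followed in every comparison, had mean differences between -0.07 and 0.15. The stalk genes Rplp0, Rplp1 and Rplp2, also followed in every comparison, were at 0.06, 0.31 and 0.25. Rpl5 and Rpl11, which with the 5S RNA bind and inhibit MDM2, had mean differences of -0.04 (SE 0.05) and 0.00 (SE 0.07). Rps6, the phosphorylated target of S6 kinase, was at 201 and 183, 194 and 203, and 258 and 236 FPKM (-0.07, SE 0.06). Rpsa, also known as the laminin receptor, was at 0.03 (SE 0.07), Rps4x at -0.03 (SE 0.06) and Rpl4 at -0.04 (SE 0.06). The ubiquitin fusion gene Rps27a had 0.15 (SE 0.07), most of it from 6499c4 (0.35), and Rpl41 had a mean of 0.14 (SE 0.14), with -0.11, -0.09 and 0.63 in the 3 lines.

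Of the lists of members by role, the stalk genes had the largest median difference under G-1, 0.22 over 4 genes, with 3 higher in all 3 lines (Rplp1, Rplp2 and Rpl12), 3 at an unadjusted p below 0.05 and 0 called. Corrected for length and GC content, their medians were 0.16, 0.09 and 0.02 in 2838c3, 6419c5 and 6499c4. The 7 tested genes of the exit tunnel and its rim had a median of 0.08, with Rpl23a, where signal recognition particle docks, at 0.13 (SE 0.06) and Rpl31 at 0.08 (SE 0.06). The 11 genes of the small subunit head and mRNA channel had 0.05, among them Rps2 and Rps28 at 0.09, and were higher in 10, 2 and 9 of 11 cases in the 3 lines. Genes named in Diamond-Blackfan anaemia had 0.02 over 4 large subunit genes (Rpl35a at 0.06, Rpl15 at 0.04) and 0.09 over 9 small subunit genes (Rps7 at 0.17, Rps24 at 0.07). In none of these lists was a gene called, and the median of all genes was -0.01. Of core proteins under other symbols, Fau, the fusion gene of Rps30, was at 0.23 (SE 0.06, limma adjusted p = 0.34) and Gnb2l1, which encodes RACK1, at 0.02 (SE 0.07). The 5 tested paralogues had a median of -0.03.

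Whether a member was higher under G-1 in one line said little about the next line. Over the 73 members with at least 50 FPKM, rho between the G-1 differences of 2838c3 and 6499c4 was -0.29, of 2838c3 and 6419c5 0.07 and of 6419c5 and 6499c4 0.32. Over the 1667 other genes of such levels the same rho values were 0.41, 0.25 and 0.26. The lines share no library, so each difference has its own vehicle. After correction for length and GC content the members' values were -0.26, 0.10 and 0.30, and those of other genes 0.15, 0.27 and 0.28.

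Length moved with the G-1 differences of all genes, not of the members alone. In 6499c4 the other genes had a median difference of 0.29 below 500 bases, 0.23 from 500 to under 750, 0.16 up to 1000, 0.09 up to 1500 and -0.06 at 5000 bases or more. The members of the first 4 of these bins (15, 29, 16 and 10 genes) had 0.30, 0.19, 0.08 and -0.02 in that line. In 2838c3 the other genes went from 0.00 below 500 bases through 0.09 (500 to under 750) to -0.10 at 5000 or more, and the members of the first 4 bins had 0.05, 0.04, 0.08 and 0.12. In 6419c5 no bin of other genes was beyond 0.03 in size. Across members, rho between length and G-1 difference was 0.11 in 2838c3, -0.03 in 6419c5 and -0.41 in 6499c4. The mean of the lines gave -0.32. Over other genes rho was -0.28, -0.08 and -0.25 in these lines and -0.32 for the mean. Members and other genes thus had opposite signs in 2838c3. Without 6499c4 the members' rho was 0.05, and with the longest transcript of the reference as length it was -0.14. When each library was corrected for gene length and GC content over all tested genes, the members' median difference was -0.01 and 38 of 77 were higher. By line it was then 0.00, 0.00 and 0.01. RNA quality and fragment size were not measured in these files, and what sets the trend with length was not tested.

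**Figure D4:**
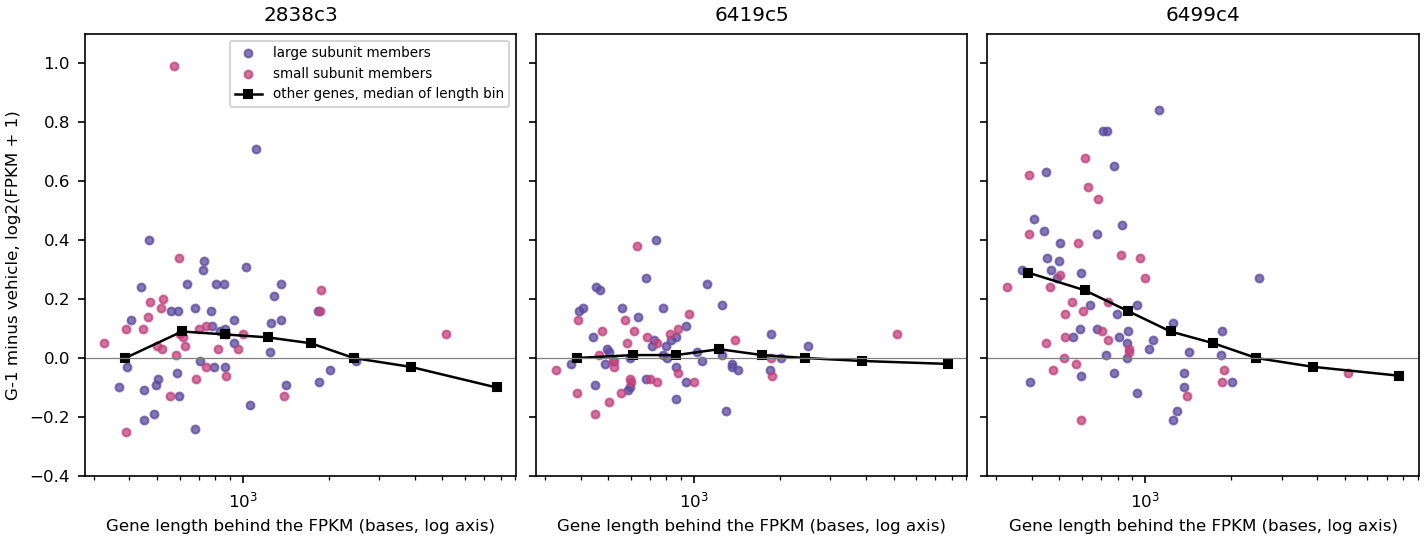
G-1 difference in log2(FPKM + 1) against gene length (log axis) in each line, for the 73 members with a mean of at least 50 FPKM by subunit; black squares are medians of all other tested genes in bins of length. The line of squares falls from 0.29 to -0.06 in 6499c4, and members lie around it.

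Differences between the lines were far larger than those under G-1. With 2 libraries per line, which differ in treatment, limma called 43 of 77 members between 6419c5 and 2838c3, 27 higher and 16 lower (51.5% of all genes were called, 26.2% higher and 25.3% lower). Between 6499c4 and 2838c3 it called 52, 47 higher and 5 lower (55.6%, 26.6% and 28.9% of all genes). Between 6499c4 and 6419c5 it called 44, 39 higher and 5 lower (45.0%, 21.3% and 23.7%). The members' counts were close to the background share in the first comparison and above it in the others. In 6499c4 higher calls outnumbered lower calls among members, whereas all genes had more lower calls than higher ones. The median log2 differences were 0.05, 0.30 and 0.27, against 0.00, -0.01 and 0.01 for all genes. Both libraries of 6499c4 were above the 4 others for 34 members (16 of 45 large, 18 of 32 small; 21.9% of all genes), and below them for 1 (23.1%). Both of 2838c3 were below the 4 others for 32 (24.2% of all genes) and above them for 5 (26.0%). Both of 6419c5 were above for 9 (19.6%) and below for 20 (18.5%). Without the vehicle or the G-1 library of 6419c5, limma called 17 and 21 members between 6419c5 and 2838c3 (22.1 and 27.3%), where 31.9 and 33.4% of all genes were called. Between 6499c4 and 6419c5 it then called 21 and 16 (27.3 and 20.8%), against 27.9 and 24.3% of all genes, so that the members' share was below the background in these 4 cases. The comparisons share lines, so they are not independent of each other.

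Length moved with these differences too. Other genes shorter than 500 bases had medians of 0.25, 0.60 and 0.32 in the 3 comparisons, in the order above, and members of that length 0.22, 0.55 and 0.44. From 500 to under 750 bases other genes had 0.26, 0.46 and 0.27, and members 0.27, 0.36 and 0.28. The bins that start at 750, 1000 and 1500 bases held 16, 10 and 4 members. In the first comparison these had -0.10, -0.12 and -0.18, against 0.17, 0.11 and 0.05 in other genes. In the second they had 0.19, 0.05 and -0.09, against 0.33, 0.19 and 0.09. In the third they were above other genes, at 0.28, 0.23 and 0.19 against 0.19, 0.12 and 0.05. With each library corrected for gene length and GC content, the members' medians were -0.11, -0.06 and 0.13. The calls were then 16 higher and 31 lower in the first comparison (52.4% of all genes called, 26.9% higher and 25.5% lower). They were 20 and 16 in the second (55.6%, 27.2% and 28.3%) and 25 and 10 in the third (45.9%, 21.9% and 24.0%). The excess of higher members in 6499c4 over 2838c3 was therefore not seen after that correction, while 6499c4 against 6419c5 still had more higher than lower calls. Between 6419c5 and 2838c3 the split was also 23 higher and 21 lower with quantile scaling.

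**Figure D5:**
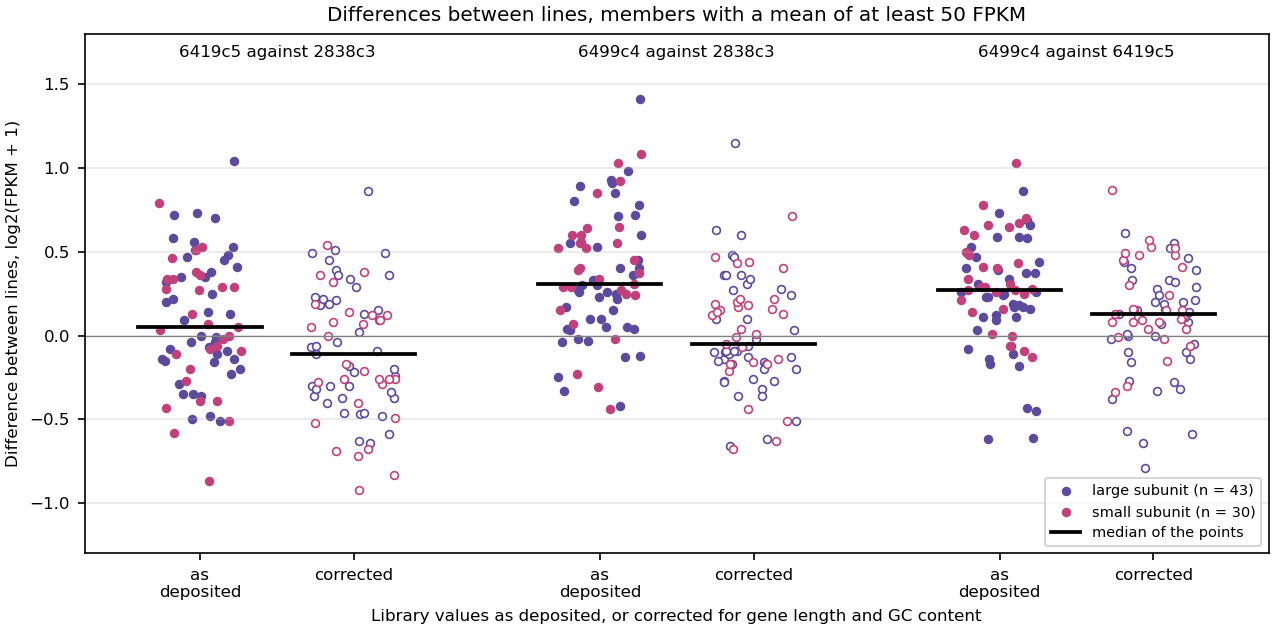
Differences between lines in log2(FPKM + 1) for the 73 members with a mean of at least 50 FPKM, from the deposited values (filled) and after correction for gene length and GC content (open), by subunit, with black bars for medians. The medians go from 0.05, 0.31 and 0.27 to -0.11, -0.05 and 0.13, and the scatter of single members stays broad, from -0.92 to 1.15 after the correction.

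Single members differed between lines by more than the shared shift, and the correction left some of the widest differences near their size and moved others. Rpsa had 598 and 669 FPKM in 2838c3, 346 and 347 in 6419c5, and, in 6499c4, 479 and 452, with no overlap between lines. It was lower in 6419c5 than in 2838c3 by -0.87 on the log2 scale (SE 0.08, limma adjusted p = 1.56e-04; -0.92 corrected) and in 6499c4 by -0.44 (SE 0.08, limma adjusted p = 0.00266). Rps24, a small subunit gene with tissue-specific splicing, had 666 and 705, 441 and 473, and 546 and 558 FPKM, again highest in 2838c3. Its differences from 2838c3 were -0.58 in 6419c5 and -0.31 in 6499c4, and -0.83 and -0.68 corrected, and the second lost its call with scaling to read totals (limma adjusted p = 0.0621). Rpl4, a protein of the exit tunnel wall, was lower in 6419c5 than in 2838c3 by -0.51 (SE 0.07, limma adjusted p = 0.00106).

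Rpl27a was the member with the largest difference between 6499c4 and 2838c3, 1.41 (SE 0.13, limma adjusted p = 1.10e-04; 1.15 corrected), and 6419c5 was 1.04 above 2838c3. Rps27a had 256 and 261, 435 and 460, and 483 and 618 FPKM, so that 2838c3 was lowest with no overlap. It was 0.79 above 2838c3 in 6419c5 and 1.08 in 6499c4, and 0.54 and 0.71 corrected. Rps15, of the small subunit head, was at 813 and 827, 1197 and 1175, and 1589 and 1761 FPKM. Its difference of 6499c4 from 2838c3 was 1.03 (SE 0.08, limma adjusted p = 4.73e-05) and 0.47 corrected. The call of Rpl34 in that comparison (1.38, limma adjusted p = 0.0471) rested on few reads. It ended with the correction (adjusted p = 0.135) and when any of 4 libraries was left out, with a difference of 0.29 without the G-1 library of 6499c4. Rplp1 was called higher in 6499c4 than in 2838c3 (0.30, limma adjusted p = 0.0182) and was at -0.14 (adjusted p = 0.16) after the correction. That call was also lost without any 1 library other than the G-1 library of 2838c3 (limma adjusted p of 0.069 to 0.125). Rpl7a was called lower in 6499c4 than in 2838c3 (-0.33, SE 0.07, limma adjusted p = 0.00515; -0.66 corrected), as was Rpsa.

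Rps25, needed for initiation at some internal ribosome entry sites, separated 6419c5 from 6499c4: it had 255 and 267 FPKM in 6419c5 and 444 and 644 in 6499c4, a difference of 1.03 (SE 0.13, limma adjusted p = 7.91e-04; 0.87 corrected). Of its annotated exon bases, 24.8% overlap genes on the other strand, and the sources name no strand setting for the counting. Rpl10 on the X chromosome (0.73), Rpl29 (0.86) and Rps29 (0.78) were also called higher in 6499c4 than in 6419c5, although Rpl29 and Rps29 lost the call without the G-1 library of 6419c5 (limma adjusted p = 0.109 and 0.161) and Rps29 without its vehicle library (0.0619). In the other direction stood Rpl24 (378 and 457 FPKM in 6419c5, 233 and 312 in 6499c4), Rpl22 (121 and 125 against 72.6 and 87.8) and Rpl11 (956 and 892 against 689 and 661), with differences of -0.62, -0.61 and -0.45. Rpl24 lost its call without either library of 6419c5 (limma adjusted p = 0.0674 and 0.141) and without the vehicle library of 6499c4 (0.0732), and Rpl11 without the vehicle library of 6419c5 (0.0785). Rpl24 also shares 47.0% of its exon bases with Gm28037 on the same strand. Rpl35a was 0.73 higher in 6419c5 than in 2838c3.

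In the deposited values, genes tied to the members by function did not follow them in a common direction. Of 77 mitochondrial ribosomal protein genes, all tested, 0 were called under G-1. An unadjusted limma p below 0.05 was found for 22, more than in the cytosolic set, against 10.1% of all genes. Their median of 0.07, with 61 higher, was much like that of the cytosolic set before any correction (0.08 and 64). Corrected for length and GC content, their median was 0.03 and that of the cytosolic set -0.01. The 23 other genes with a 5' terminal oligopyrimidine tract, mostly elongation and initiation factors, had a median of -0.03 with 7 lower and 2 higher in all 3 lines, among them Nap1l1 (-0.18, SE 0.06), Ipo7 (-0.17, SE 0.06) and the poly(A)-binding protein gene Pabpc1 (-0.15, SE 0.06). The 14 genes of RNA polymerase I and its factors had -0.06, with Taf1b at -0.39 (SE 0.16) and Cd3eap at -0.23 (SE 0.08), and the 14 genes of S6 kinases and translation control had 0.01, with Rps6ka3 at -0.14 (SE 0.09), Eif4ebp2 at -0.12 and Mtor at -0.08. In these 3 lists 0 genes were called. Their medians are from values not corrected for length and GC content, and with that correction the members' own median went from 0.08 to -0.01. The distance between these lists and the members therefore cannot be told apart from the trend with length. The 10 housekeeping genes had a median of 0.01, with Actb, Ywhaz and Sdha at -0.11.

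Reads in genes numbered 5480436 to 8930567 per library, and 13071 to 13627 genes were above 0. Of 9 markers of pancreatic duct epithelium and ductal adenocarcinoma, 8 reached 1 FPKM in at least 1 library, with sums of 3530 to 6100 FPKM. Among these 9, Epcam (0.284 to 5.81 FPKM), Sox9 (0.602 to 2.73) and Cldn4 (0 to 0.928) were low in all libraries and added little to the sums. Sums for leukocyte, endothelial, fibroblast, acinar and islet markers were at most 3.38, 1.58, 1.11, 7.74 and 0 FPKM in any library, and 3 of 3 islet, 2 of 4 acinar, 2 of 5 fibroblast and 1 of 5 leukocyte markers were at 0 in all.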

How the data were processed

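The authors deposited 1 table of FPKM values for 24421 genes in 6 libraries. The submitters' processing notes name STAR and DESeq2, with no version, and neither labels nor headers give the genome build, annotation or counting rules behind these FPKM values. Since the smallest steps of each library's FPKM values are whole multiples, reads and gene lengths could be recovered from the deposited FPKM. Reads came out whole within 0.01 for all 15712 genes above 0, and lengths for 15710 (99.99%). The library scale equalled median-of-ratios size factors within a relative difference of 6.37e-11.

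Differences were tested with limma 3.58.1 (R 4.3.3) on log2(FPKM + 1), with a filter at a mean of 1 FPKM that left 10748 genes, a variance trend, 2 residual and 5.35 prior degrees of freedom and Benjamini-Hochberg adjustment over all tested genes. G-1 was tested with the line as a block and lines with treatment as a covariate. The added 1 FPKM understates differences of low genes. The line pairs the libraries: deviations of its 2 libraries from the treatment means correlated at 0.906, 0.871 and 0.882 in 2838c3, 6419c5 and 6499c4. Read ratios have exact 95% intervals that cover counting error only. Alternatives were limma-voom on recovered reads, correction of each library for length or for length and GC content by natural splines (5 degrees of freedom; GC known for 96.5% of tested genes), quantile scaling, scaling to read totals, other pseudocounts, filters and variance settings, no line block, and leaving out each library. The steps were tested on simulated data.

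Positions, coding lengths and shared 50-base words come from GENCODE M21 (GRCm38), and start sites from RefSeq (GRCm38.p6), where 60 of 81 members matched. Other tables used Python 3.11.15, numpy 2.4.6 and scipy 1.17.1. Members, gene lists and tests were chosen with earlier results of these data known. Genes were named by rule: the stalk genes and members with known further roles, the 6 highest and 6 lowest levels, up to 6 members per direction with the same sign under G-1 in all lines, up to 4 per direction and pair of lines by size of the log2 difference, and up to 3 per list. A few genes that this rule or the lists would name are not reported here.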

Additional observations from a re-analysis of the deposited data

How the results depend on the processing

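For G-1, 0 members were called under the limma settings tried on FPKM, leaving out each line included. These settings called only 0 to 11 of all genes, so 0 of 77 members is close to the share of all genes. Limma-voom on recovered reads called 9 members and 169 of all genes. The median difference of 0.08 was -0.01 with the length correction and -0.01 with length and GC content, and 0.05 to 0.11 without 1 line. Without the replicate block of lines, 0 members were called and the median was 0.08. Each line has both treatments, so the differences under G-1 are the same with or without the block by design. Without it the spread between lines enters the error, so this setting adds no support to the 0 calls. The rho with length was -0.39 to 0.05 when 1 line was left out, and it was 0.05 without 6499c4. Large subunit genes took 61.2% of member reads against 57.4% of member FPKM.

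Between 6419c5 and 2838c3, 43 members were called in limma, 27 with no level filter and 17 to 49 with 1 library left out, the fewest without the vehicle (17) or G-1 library (21) of 6419c5. The median of 0.05 was 0.04 to 0.10 with 1 library left out (0.10 without the vehicle library of 2838c3, 0.09 without the G-1 library of 6419c5), -0.01 with quantile scaling, 0.08 with read totals, 0.07 with limma-voom and -0.11 with length and GC correction. Between 6499c4 and 2838c3, the 52 calls were 34 with no level filter and 36 to 50 with 1 library left out, and the median of 0.30 was 0.25 to 0.42, 0.44 with read totals and -0.06 with length and GC correction. Between 6499c4 and 6419c5, the 44 calls were 27 with no level filter and 16 to 47 with 1 library left out, the fewest without the G-1 (16) or vehicle library (21) of 6419c5, and the median of 0.27 was 0.19 to 0.34, and 0.13 with length and GC correction. All genes moved too: with no level filter 33.6, 36.7 and 28.4% of them were called in these comparisons, against 34.6, 43.6 and 34.6% of members. Without 1 library it was 31.9 to 52.8%, 41.7 to 51.9% and 24.3 to 43.8% of all genes, against 22.1 to 63.6%, 46.8 to 64.9% and 20.8 to 61% of members. Read totals moved the median of all genes to 0.03, 0.11 and 0.10 in these comparisons. With length and GC correction, 6499c4 against 2838c3 reversed for Rplp1 (-0.14, from 0.30), Rpl11 (-0.15, from 0.25) and Rpl8 (-0.32, from 0.04), and with quantile scaling 6499c4 against 6419c5 reversed for Rpl12 (-0.24, from 0.03). The cause was not tested. With 1 library per line and treatment, an arm of 1 library is assumed to vary like the others, and differences of Rpl30, Rpl34 and Rps27 rest on 1 to 68 reads.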
